A study of Mus musculus with 12 samples.

Results

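The retinal pigment epithelium (RPE) lies against the outer segments of the rod photoreceptors, and RPE samples carry reads of rod genes. A list of 38 such genes was followed in RNA sequencing libraries of the RPE of 6 WT and 6 rd6 mice. The genes were taken by symbol from a table of 28591 genes and kept where their mean normalized count over the 12 libraries was at least 10, which all 38 passed, as did 17768 genes of the table. The rule uses no difference between the genotypes. All mice were 1 mo of age. WT mice were C57BL/6J, and rd6 mice were homozygous for the rd6 allele of Mfrp (Mfrp rd6/rd6), which encodes a membrane protein of RPE cells. The allele is carried in every cell of the mouse. Each library holds the RPE of both eyes of a mouse, isolated from the eyecup after the neural retina had been removed. Mice of both sexes were used, and sex and dissection day are not among the labels of the libraries. Questions that the comparison addresses are whether rod genes differ between the genotypes in the RPE samples, and which of them depart from the variation between libraries that rod genes share.

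Rods detect light with a G protein cascade. Activated visual pigment turns on transducin (Gnat1, Gnb1 and Gngt1), which turns on the cGMP phosphodiesterase (Pde6a, Pde6b and Pde6g), and the fall in cGMP closes the cyclic nucleotide-gated channel (Cnga1 and Cngb1). Arrestin (Sag), rhodopsin kinase (Grk1) and the RGS9 complex (Rgs9 and Rgs9bp) end the response, and guanylate cyclases with their activating proteins (Gucy2e, Gucy2f, Guca1a and Guca1b) restore cGMP. The outer segment is a stack of membrane discs whose rims need Prph2 and Rom1, and rods shed the tips of these stacks to the RPE. RNA of the rod cell itself is made in the nucleus under transcription factors that include Crx, Nrl and Nr2e3.

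The 38 genes lie on 17 chromosomes. RefSeq promoter windows, the 250 bases before a transcript start on GRCm38.p6, were matched by symbol for 28 of them, in 32 windows. The core of the binding motif of CRX, TAATCC on either strand, was present in 12 of these 32 windows (37.5%) and in 6.25% of all 32817 windows. A short NRL site, TGCTGA on either strand, was present in 7 windows (21.9%), against 16.1% of all windows. Windows with both made up 9.38% of those of the rod genes and 0.96% of all. These 2 motifs do not overlap in their letters, and a match is a description of the sequence only. The windows below are shown as examples with both motifs and with neither. Sag and Gnb1 depart from the variation that rod genes share by both panels of genes used below. Grk1 does so only by the panel formed after the data were seen. Sag (chr1:87803430-87803679, plus strand) and Rbp3 (chr14:33953753-33954002, plus strand) hold both motifs. Grk1 (chr8:13404831-13405080, plus strand) and Gnb1 (chr4:155491111-155491360, plus strand) hold neither. Capitals mark TAATCC and TGCTGA or their reverse complements, GGATTA and TCAGCA.
Sag: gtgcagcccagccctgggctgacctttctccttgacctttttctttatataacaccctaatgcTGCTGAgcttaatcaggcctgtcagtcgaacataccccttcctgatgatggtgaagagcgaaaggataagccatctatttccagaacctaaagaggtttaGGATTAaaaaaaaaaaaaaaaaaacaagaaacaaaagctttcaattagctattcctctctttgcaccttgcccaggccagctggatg
Rbp3: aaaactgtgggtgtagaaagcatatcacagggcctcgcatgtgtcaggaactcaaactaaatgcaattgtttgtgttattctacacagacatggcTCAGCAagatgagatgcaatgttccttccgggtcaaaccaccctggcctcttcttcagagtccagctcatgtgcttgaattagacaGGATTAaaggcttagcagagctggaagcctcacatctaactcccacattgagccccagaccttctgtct
Grk1: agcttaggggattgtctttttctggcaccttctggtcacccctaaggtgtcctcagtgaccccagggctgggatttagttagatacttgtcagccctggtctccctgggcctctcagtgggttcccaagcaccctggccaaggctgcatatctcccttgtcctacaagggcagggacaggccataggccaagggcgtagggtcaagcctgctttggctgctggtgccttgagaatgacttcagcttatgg
Gnb1: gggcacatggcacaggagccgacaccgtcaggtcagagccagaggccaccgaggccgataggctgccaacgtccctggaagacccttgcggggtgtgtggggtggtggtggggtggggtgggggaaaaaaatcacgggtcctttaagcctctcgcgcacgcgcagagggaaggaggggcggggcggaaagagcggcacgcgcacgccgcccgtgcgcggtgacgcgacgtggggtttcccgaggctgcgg

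The samples were checked first. Mfrp, the mutated gene, ranged from 30132 to 45442 normalized counts in the WT libraries and from 20442 to 29732 in the rd6 libraries, without overlap. RPE markers were abundant. Rpe65, the isomerase of the visual cycle, had a mean of 169474 ± 21315 normalized counts in WT and 99402 ± 21295 in rd6 (SD, n = 6 each). The number of reads on genes was between 28907262 and 33152725 per library, at which 3 reads correspond to 2.71 to 3.32 normalized counts, so that every rod gene stood above that floor in every library. Library rd6 replicate 5 stood apart for rod genes. It held the highest rd6 value of 32 of the 38 genes, and in 29 of them its gap to the other rd6 libraries passed a test for outliers. Markers of other retinal neurons were also high there. The mean log2 level of the inner neuron list was 8.05 in rd6 replicate 5 and 5.72 to 6.31 in the other rd6 libraries, and 12 of its 13 genes had their highest rd6 value in that library, as did 8 of 10 bipolar, 7 of 11 cone, 3 of 10 Müller glia and 1 of 12 RPE genes. In that inner neuron list Onecut1 and Lhx1 were at 0 in some libraries. Results are therefore given with and without rd6 replicate 5, and the part of these other markers in the results was not tested.

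Of the 38 rod genes, 11 fell in rd6 and 27 did not pass the test. By point estimate in limma all 38 were lower (with edgeR and DESeq2 Sag stood at 0.020 and 0.013), with a median log2 difference of -0.73, while the median over all 17768 genes was 0.00. With limma and a p-value adjusted over all genes after Benjamini and Hochberg (q) below 0.05, these 11 fell and none rose, while 11.6% of all genes fell and 11.4% rose. edgeR and DESeq2 on the recovered reads also called none higher. At an unadjusted p below 0.05, 23 of the 38 were lower, against 18.1% of all genes. Of the 38, 6 fell by at least 0.81 on the log2 scale, the larger limit used here (2.12% of all genes): Grk1, Rgs9bp, Nrl, Prph2, Rp1l1 and Rdh12. The other 5 with q below 0.05 were Gnb1, Rom1, Fam161a, Abca4 and Unc119. Only Gnb1 and Rom1 had every rd6 library below every WT library, a pattern that 5.67% of all genes showed. In such bulk samples, fewer cells of a type and less RNA per cell cannot be told apart.

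Without rd6 replicate 5 the number of rod genes that fell was 32 (11.4% of all genes), with 24 of them past the limit of 0.81 (3.01% of all genes) and 18 without overlap (6.87% of all genes). The median log2 difference was then -1.03. The 6 genes that did not pass were Cngb1, Sag, Rgs9, Gucy2f, Prom1 and Abca4. Other libraries moved the count of 11 as well. It was 19 without WT replicate 5, 6 without WT replicate 2, WT replicate 3 or rd6 replicate 2, and 7 without rd6 replicate 3 or rd6 replicate 4. The count of 6 past the limit of 0.81 was 11 without WT replicate 1, 13 without WT replicate 5, and 3 without WT replicate 2, WT replicate 3, rd6 replicate 2, rd6 replicate 4 or rd6 replicate 6. Since the rod genes were measured in the same libraries and most of them varied together, these counts are not those of independent genes.

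**Figure D1:**
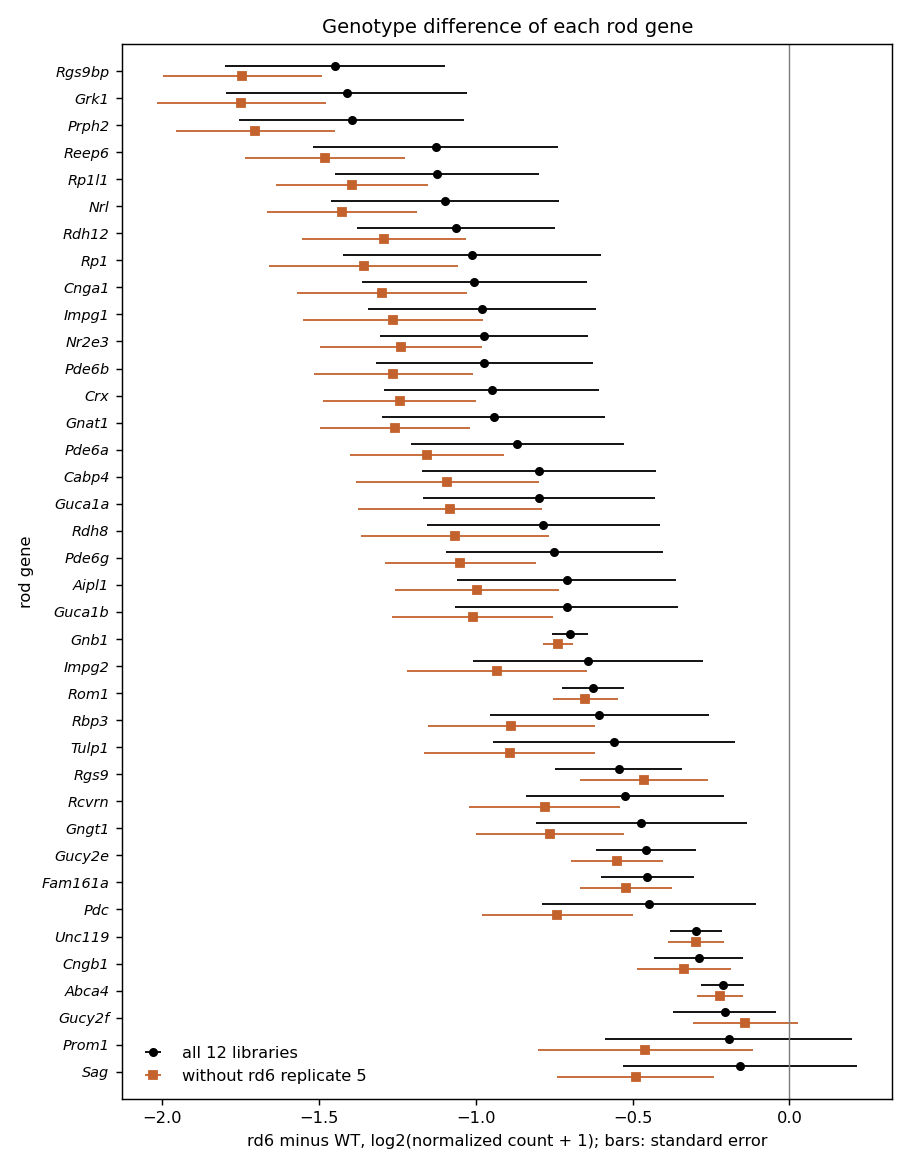
Genotype difference of each of the 38 rod genes (rows) as rd6 minus WT on the log2(normalized count + 1) scale, with standard errors, in all 12 libraries (black circles) and without rd6 replicate 5 (orange squares). All points lie below 0, from -1.45 for Rgs9bp to -0.16 for Sag in all 12 libraries, and Gnb1 at -0.70 has the shortest error bar.

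The 12 libraries differed widely in the level of most rod genes, also within a genotype. Summed over the 29 genes that followed the other rod genes, as defined below, the level ranged from 22063 to 55182 normalized counts in WT, a 2.50-fold range, and from 13532 to 58820 in rd6, a 4.35-fold range. Without rd6 replicate 5 the highest rd6 sum was 20557, below the lowest WT sum. These sums were 0.0451% to 0.204% of all normalized counts of a library. Among WT libraries, 17 of the 29 genes were highest in replicate 3 and 8 in replicate 4. Among rd6 libraries, all 29 were highest in replicate 5.

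**Figure D2:**
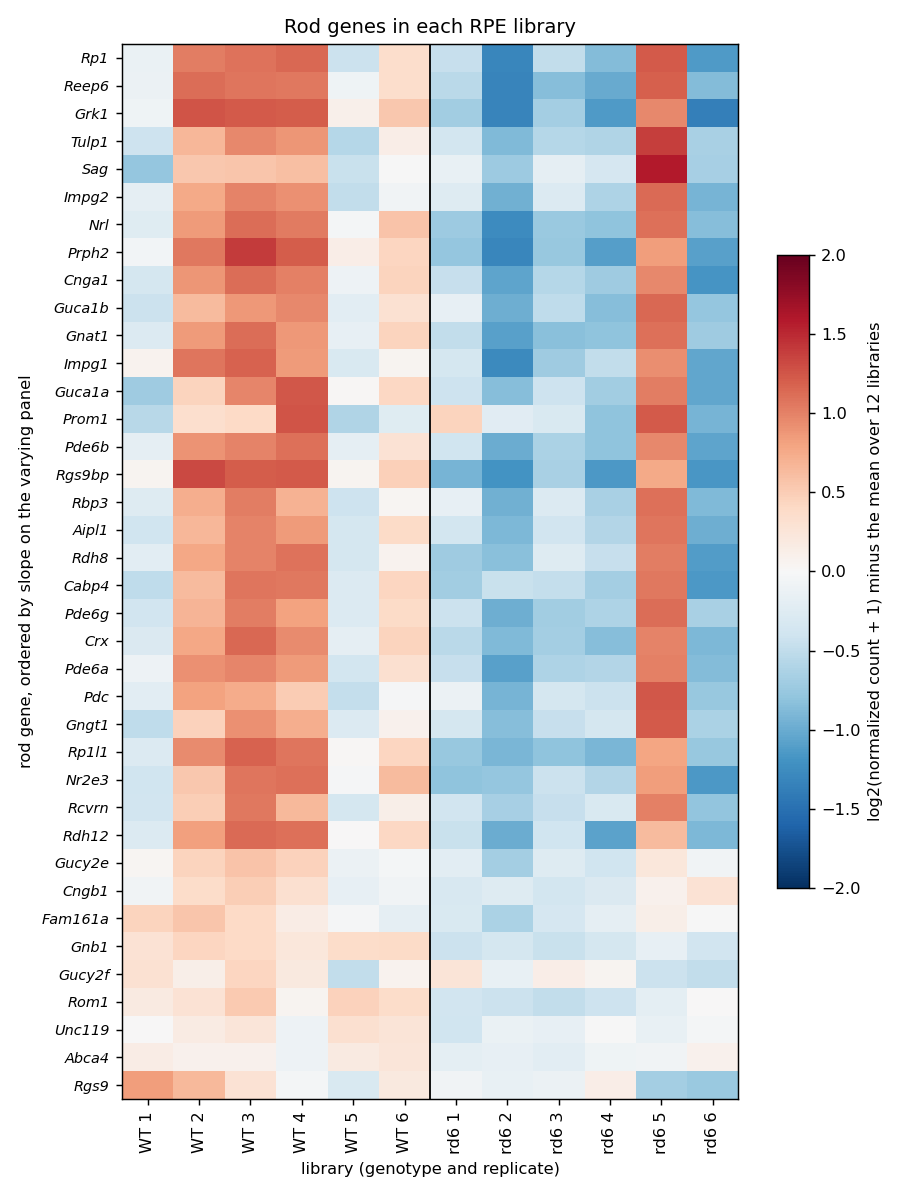
Level of the 38 rod genes (rows) in the 12 libraries (columns), as log2(normalized count + 1) minus the mean of the gene over the libraries, ordered from the highest slope on the varying panel (Rp1, 1.14) to the lowest (Rgs9, -0.13). The upper 29 rows are high in rd6 replicate 5, and most also in WT replicates 2, 3 and 4. Of the lowest 8 rows, Cngb1 is high in WT replicates 2, 3 and 4 by a smaller amount, and Gnb1 and Fam161a have their highest rd6 value in replicate 5.

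To describe this shared variation, a panel of 23 other rod genes was used, none of them among the 38, and the mean of their log2 levels was added to the limma model beside the genotype. The slope on this panel level is the change in log2 level of a gene per log2 unit of the panel at a given genotype. Within the genotypes, however, 11 of the 23 panel genes varied less between libraries, with an SD of log2 level below 0.4, and several of them were abundant and fell in rd6. Of these 11, Mpp4, Kcnv2 and Lrit1 still had positive slopes on the varying panel defined next (0.44, 0.35 and 0.38, q = 0.00242, 0.00819 and 0.0101). Slc24a1, a cation exchanger of the rod outer segment, stood at 38945 ± 4728 normalized counts among WT and 22717 ± 2511 among rd6 libraries (SD, n = 6), and Cdhr1, a photoreceptor cadherin, 14362 ± 1511 and 4166 ± 718. After these values were seen, a second panel was formed of the 12 panel genes whose SD of log2 level within the genotypes was at least 0.4, with Cacna2d4 just inside (0.54) and Rpgrip1 just outside (0.35). It is called the varying panel here, and results are given for both panels. On the level of all 23 panel genes, 30 of the 38 rod genes had a positive slope with q below 0.05, against 1.2% of all genes. On the varying panel 30 had one as well, against 1.44% of all genes, and without rd6 replicate 5 this held for 25 rod genes and 0.321% of all genes.

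The slopes on the varying panel fell into a wide upper and a small lower group. In 29 of the 38 genes the slope was between 0.84 (Rdh12) and 1.14 (Rp1), all with q below 0.05, and without rd6 replicate 5 it was between 0.84 and 1.18. In these 29 genes the SD of log2 level within the genotypes had a median of 0.69, and once the varying panel was in the model the residual SD had a median of 0.14. Gucy2e, a membrane guanylate cyclase, lay between with a slope of 0.37 ± 0.07 (SE, q = 0.0235). In the other 8 genes no slope passed the test: Cngb1 (0.22), Fam161a (0.20), Gnb1 (0.07), Gucy2f (0.02), Rom1 (0.02), Unc119 (-0.04), Abca4 (-0.05) and Rgs9 (-0.13). With rd6 replicate 5 left out, the slopes of these 8 still did not pass, but those of Gucy2f (0.36) and Cngb1 (0.31) lay above 0.25, and that of Gucy2e was 0.48 and did not pass (q = 0.198). The limits of 0.8 and 0.25 that separate these groups were chosen after the slopes were seen, and no test was made between the groups.

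The 8 genes of low slope had a larger summed level than the 29 of high slope in every library except rd6 replicate 5, where the sums were 53690 and 58820. Their summed level was 60559 to 72623 normalized counts in WT and 48370 to 55898 in rd6, without overlap. Per kilobase of exon, the mean level over the 12 libraries was highest in Rom1 (5217 normalized counts per kb), Unc119 (4228), Gnb1 (3654), Gnat1 (2679) and Abca4 (1763), so that 4 of the 5 most abundant genes by length belonged to the low group. Impg2, a proteoglycan of the matrix around photoreceptors, was the least abundant at 22.3 per kb. CRX core motifs were present in the windows of 7 of the 19 genes of high slope that have a window and of 4 of the 8 of low slope. These shares were not tested against each other.

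**Figure D3:**
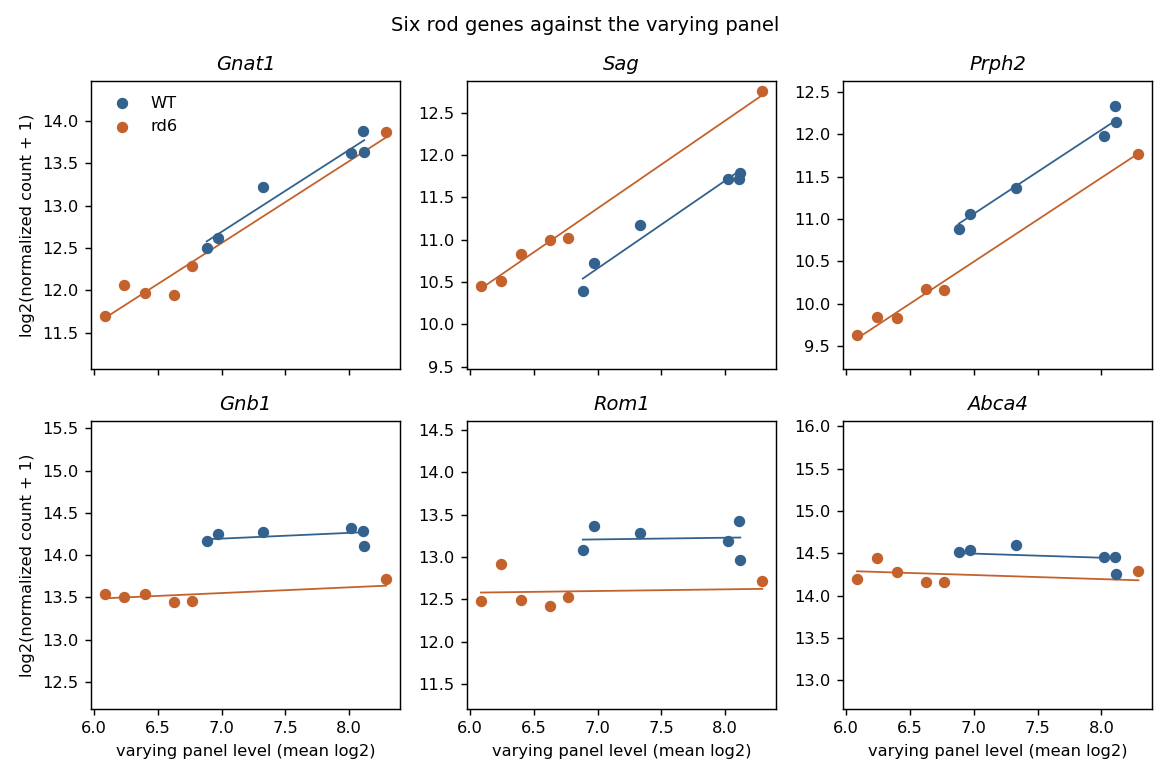
Level of 6 rod genes, log2(normalized count + 1) on vertical axes of equal span, against the varying panel level (mean log2 over 12 genes) in WT (blue) and rd6 (orange) libraries, with lines of the fitted common slope. Gnat1, Sag and Prph2 rise with the panel (slopes 0.97, 1.04 and 0.99), with Sag higher and Prph2 lower in rd6 at a given panel level, while Gnb1, Rom1 and Abca4 stay flat.

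Among transducin subunits, Gnat1, the rod alpha subunit, had a lowest, median and highest level of 5794, 11043 and 15113 normalized counts in WT and of 3302, 4122 and 14987 in rd6. The ranges overlapped through rd6 replicate 5, and the highest value of the other rd6 libraries was 4983. The log2 difference was -0.94 ± 0.35 (SE, q = 0.0737), and -1.26 ± 0.24 without that library (q = 0.00300). At equal level of the varying panel it was -0.13 ± 0.10 (q = 0.343), and at equal level of all 23 genes it was 0.34 ± 0.11 (q = 0.0527). Gnb1 (chr4:155491361-155559269, plus strand) encodes a beta subunit that rods share with many other cell types. Its levels were 17699, 19643 and 20433 in WT and 11132, 11759 and 13501 in rd6, and the difference was -0.70 ± 0.06 (q = 2.70e-06). This was larger than the spread between the libraries, and at equal panel level Gnb1 remained lower by both panels (varying panel -0.64 ± 0.06, q = 2.27e-05; all 23 genes -0.60 ± 0.07, q = 0.000227). Gngt1, the gamma subunit, ranged from 481 to 1291 with a median of 830 in WT and from 379 to 1589 with a median of 514 in rd6. Its plain difference of -0.47 ± 0.34 did not pass (q = 0.345), and without rd6 replicate 5 it did (-0.76 ± 0.24, q = 0.0373). At equal panel level it was higher in rd6 (0.30 ± 0.09, q = 0.0362 with the varying panel and 0.74 ± 0.10, q = 0.000533 with all 23 genes). Neither passed without rd6 replicate 5, with values of 0.26 ± 0.14 (q = 0.304) and 0.71 ± 0.17 (q = 0.0590).

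The 3 phosphodiesterase genes moved as a block with slopes of 0.93 to 0.96. Pde6g, the inhibitory subunit, was the most abundant by length, with 853, 1616 and 2272 normalized counts in WT and 564, 715 and 2419 in rd6. Pde6a, the catalytic alpha subunit, had 967, 1913 and 2471 in WT and 589, 826 and 2519 in rd6. With all libraries none of the 3 passed (log2 differences of -0.75 to -0.97, all 3 with an unadjusted p below 0.05), and without rd6 replicate 5 all did (-1.05 to -1.26). Pde6a and Pde6g were higher in rd6 at equal level of all 23 panel genes (0.37 ± 0.09, q = 0.0112 and 0.50 ± 0.11, q = 0.00930), but not at equal level of the varying panel (-0.09 ± 0.08 and 0.04 ± 0.10). Pde6b, the catalytic beta subunit, had the smallest residual SD of all 38 genes, 0.07.

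The 2 channel subunits differed in behaviour. Cnga1 had a slope of 0.98 ± 0.06, and Cngb1, the more abundant by length, of 0.22 ± 0.10. Cngb1 had 1057, 1311 and 1670 normalized counts in WT and 918, 983 and 1452 in rd6, with rd6 replicate 6 and not replicate 5 at the top. Its difference of -0.29 ± 0.14 did not pass (q = 0.169), and neither did that of Cnga1 with all libraries (-1.01 ± 0.36, q = 0.0606). Cnga1 fell without rd6 replicate 5 (-1.30 ± 0.27, q = 0.00499).

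With all 12 libraries, the genes that end the light response held the largest and the smallest change of the 38. Sag (chr1:87803680-87845158, plus strand), rod arrestin, had 1347, 2836 and 3524 normalized counts in WT and 1398, 1937 and 6942 in rd6. Its mean was 2603 ± 950 in WT and 2625 ± 2134 in rd6 (SD, n = 6), and the plain difference over all 12 libraries was the smallest of the 38 (-0.16 ± 0.37, q = 0.797). Without rd6 replicate 5 it was -0.49 ± 0.25 (q = 0.193), and the smallest was then that of Gucy2f (-0.14 ± 0.17). Its slope on the varying panel was 1.04 ± 0.05. At equal panel level Sag was higher in rd6 by 0.71 ± 0.07 (q = 3.28e-05) with the varying panel and by 1.20 ± 0.10 (q = 1.68e-05) with all 23 genes. Without rd6 replicate 5, where panel levels did not overlap between the genotypes, it was higher by 0.64 ± 0.11 (q = 0.00495) with the varying panel.

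Grk1 (chr8:13405081-13421951, plus strand), the kinase that phosphorylates the pigment before arrestin binds, went the other way. It had 699, 1397 and 1776 normalized counts in WT and 286, 399 and 1454 in rd6, with a difference of -1.41 ± 0.39 (q = 0.0191). Grk1 was lower in rd6 at equal level of the varying panel (-0.52 ± 0.07, q = 0.000274), and with all 23 panel genes the value was -0.01 ± 0.10 (q = 0.955). Rgs9bp, the membrane anchor of RGS9, had the largest plain change with all 12 libraries (-1.45 ± 0.35, q = 0.0101). Its levels were 355, 638 and 860 in WT and 149, 166 and 581 in rd6. Without rd6 replicate 5 the change was -1.74 ± 0.25 (q = 0.000522) for Rgs9bp and largest for Grk1 (-1.75 ± 0.27, q = 0.000763). At equal level of the varying panel Rgs9bp was at -0.65 ± 0.10 (q = 0.000644), and with all 23 genes at -0.19 ± 0.12 (q = 0.289). Rgs9 itself, which accelerates the GTPase of transducin, did not follow the panel, and its levels of 2701, 3965 and 5974 in WT and 1992, 3047 and 3660 in rd6 overlapped (-0.54 ± 0.20, q = 0.0696).

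Pdc, phosducin, which binds transducin beta and gamma subunits, had 809, 1361 and 1980 in WT and 594, 861 and 2676 in rd6. Its plain difference did not pass with all libraries (-0.45 ± 0.34, q = 0.379) and passed without rd6 replicate 5 (-0.74 ± 0.24, q = 0.0461). Like Sag it was higher in rd6 at equal panel level (0.33 ± 0.09, q = 0.0214 with the varying panel and 0.79 ± 0.10, q = 0.000277 with all 23 genes). In the 11 libraries without rd6 replicate 5 the first of these was 0.31 ± 0.14 and did not pass (q = 0.221), and the second was 0.78 ± 0.16 (q = 0.0352). Rcvrn, recoverin, the calcium sensor that acts on GRK1, had 397, 647 and 1085 in WT and 301, 389 and 1047 in rd6. It was higher at equal level of all 23 genes (0.60 ± 0.13, q = 0.00732), whereas the value with the varying panel was 0.18 ± 0.12 (q = 0.289). The plain difference of Rcvrn passed only without rd6 replicate 5 (-0.78 ± 0.24, q = 0.0371, against -0.53 ± 0.32, q = 0.258).

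Of the 4 cyclase genes none passed the plain test in limma, and 1, Gucy2e (-0.46 ± 0.16, q = 0.0548), had an unadjusted p below 0.05. Guca1a, a cyclase activating protein and the most abundant by length, had 226, 500 and 884 normalized counts in WT and 181, 253 and 756 in rd6 (-0.80 ± 0.37, q = 0.142). Guca1b, the other activating protein, had 576, 1078 and 1513 in WT and 391, 498 and 1717 in rd6, and was higher at equal level of all 23 panel genes (0.56 ± 0.14, q = 0.0149) but at 0.11 ± 0.09 with the varying panel (q = 0.378). The cyclases varied less with the panel than their activators. Gucy2f, with a slope of 0.02, ranged from 309 to 585 in WT and from 309 to 517 in rd6. With rd6 replicate 5 left out, Guca1a (-1.08 ± 0.29, q = 0.0210), Guca1b (-1.01 ± 0.26, q = 0.0151) and Gucy2e (-0.55 ± 0.15, q = 0.0201) fell.

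The 3 transcription factors had similar differences of -0.95 to -1.10 and slopes of 0.85 to 1.00. Nrl, which directs the rod fate, had 759, 1474 and 1952 in WT and 374, 523 and 1915 in rd6 and fell (-1.10 ± 0.36, q = 0.0459). Without rd6 replicate 5 the difference of Nrl was -1.43 ± 0.24 (q = 0.00136). Crx and Nr2e3 did not pass with all libraries (q = 0.0637 and 0.0510) and fell without rd6 replicate 5 (-1.24 ± 0.24, q = 0.00359 and -1.24 ± 0.26, q = 0.00512). None of the 3 passed at equal level of the varying panel (-0.17 to -0.27). Exons of Nr2e3 overlap those of a predicted gene on the same strand, so that its counts are uncertain.

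Of the disc and cilium genes, 4 of 6 fell (11.6% of all genes). Prph2 (chr17:46910459-46924933, plus strand), peripherin 2 of the disc rim, had 1887, 3340 and 5158 normalized counts in WT and 790, 1029 and 3482 in rd6 (-1.40 ± 0.36, q = 0.0136). Prph2 had a difference of -1.70 ± 0.25 (q = 0.000613) without rd6 replicate 5. At equal level of the varying panel it was lower (-0.57 ± 0.07, q = 8.50e-05), and with all 23 genes the value was -0.09 ± 0.08 (q = 0.459). Rom1 (chr19:8927391-8929356, minus strand), the partner of PRPH2 in the disc rim, had 8001, 9665 and 10996 in WT and 5482, 5835 and 7765 in rd6. Its difference of -0.63 ± 0.10 (q = 0.000563) was kept at equal panel level, at -0.61 ± 0.12 (q = 0.00316) with the varying panel and -0.58 ± 0.14 (q = 0.0146) with all 23 genes. These were -0.73 ± 0.18 (q = 0.0305) and -0.71 ± 0.23 (q = 0.156) without rd6 replicate 5. The 2 partners thus both fell, but Prph2 varied with the panel and Rom1 did not.

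Rp1, a protein of the axoneme, had the highest slope of the 38 and levels of 421, 946 and 1262 in WT and 231, 358 and 1328 in rd6. It was higher at equal level of all 23 panel genes (0.48 ± 0.12, q = 0.0153), and with the varying panel the value was -0.06 ± 0.09. Prom1, prominin 1 of the disc base, had 386, 619 and 1415 in WT and 308, 488 and 1381 in rd6, and the largest residual SD of the genes of high slope, 0.39. It was higher at equal level of all 23 genes (1.01 ± 0.33, q = 0.0495) and did not pass with the varying panel (0.61 ± 0.24, q = 0.0794). Its exons overlap those of a predicted gene on the opposite strand. Rp1l1, a relative of RP1, and Fam161a, a ciliary protein, fell in the plain comparison (-1.12 ± 0.33, q = 0.0255 and -0.45 ± 0.15, q = 0.0427). Rp1l1 was lower at equal level of the varying panel (-0.39 ± 0.12, q = 0.0294) but not without rd6 replicate 5 (-0.38 ± 0.18, q = 0.234) or with all 23 genes (0.03 ± 0.14). Rp1 fell as well without rd6 replicate 5 (-1.36 ± 0.30, q = 0.00748, against -1.01 ± 0.41, q = 0.0968), and Prom1 did not pass (-0.46 ± 0.34, q = 0.381, against -0.19 ± 0.39, q = 0.758).

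Among genes of retinoid handling, Abca4 (chr3:122044443-122180123, plus strand), the disc transporter that clears retinal and is also known from the RPE, had 19549, 22963 and 24838 normalized counts in WT and 18286, 19333 and 22369 in rd6. The difference was small but past the limit (-0.21 ± 0.07, q = 0.0422), and without rd6 replicate 5 it was not (-0.22 ± 0.07, q = 0.0508). Abca4 was lower at equal level of the varying panel (-0.25 ± 0.08, q = 0.0371, and -0.40 ± 0.11, q = 0.0480 without rd6 replicate 5), and with all 23 genes the value was -0.26 ± 0.10 (q = 0.0795). Rbp3 (chr14:33954003-33964216, plus strand), the retinoid carrier of the space between photoreceptors and RPE, had 1818, 3219 and 4960 in WT and 1251, 1781 and 5212 in rd6. It was higher at equal level of all 23 panel genes (0.66 ± 0.10, q = 0.000799), with 0.19 ± 0.08 at equal level of the varying panel (q = 0.106). Rdh12, a photoreceptor retinol dehydrogenase, fell (-1.06 ± 0.32, q = 0.0284). At equal level of the varying panel it was just past the limit (-0.36 ± 0.12, q = 0.0492), and it was not without rd6 replicate 5 (-0.17 ± 0.17, q = 0.599) or with all 23 genes (0.03 ± 0.16). Rdh8, another such enzyme, did not pass (-0.79 ± 0.37, q = 0.150) at a mean of 51.0 ± 21.6 normalized counts in WT and 30.9 ± 21.2 in rd6. Both Rbp3 (-0.89 ± 0.27, q = 0.0326, against -0.61 ± 0.35, q = 0.237) and Rdh8 (-1.07 ± 0.30, q = 0.0244) fell without rd6 replicate 5.

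Of the chaperone and trafficking genes, Unc119, which carries lipid-modified transducin and is expressed in many tissues, was the most abundant, with 9593, 11818 and 12838 normalized counts in WT and 7817, 9270 and 10209 in rd6 (-0.30 ± 0.08, q = 0.0202). It was lower at equal level of the varying panel (-0.34 ± 0.10, q = 0.0269) and did not pass without rd6 replicate 5 (-0.42 ± 0.15, q = 0.108) or with all 23 genes (-0.34 ± 0.12, q = 0.0688). Tulp1, needed for protein transport to the outer segment, had 364, 730 and 1060 in WT and 294, 362 and 1415 in rd6, and was higher at equal panel level (0.33 ± 0.09, q = 0.0237 with the varying panel and 0.84 ± 0.11, q = 0.000422 with all 23 genes). These were 0.31 ± 0.14 (q = 0.225) and 0.82 ± 0.19 (q = 0.0492) without rd6 replicate 5. Aipl1, the chaperone of the phosphodiesterase, had 295, 563 and 779 in WT and 199, 280 and 821 in rd6. It was higher at equal level of all 23 genes (0.54 ± 0.12, q = 0.0104) and at 0.09 ± 0.10 with the varying panel. Reep6, a membrane-shaping protein of rods, was the nearest to a call among the others (-1.13 ± 0.39, q = 0.0537). Tulp1 and Aipl1 did not pass with all libraries (-0.56 ± 0.39 and -0.71 ± 0.35). When rd6 replicate 5 was left out, Reep6 (-1.48 ± 0.26, q = 0.00160), Tulp1 (-0.89 ± 0.27, q = 0.0354) and Aipl1 (-0.995 ± 0.262, q = 0.0180) fell.

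Cabp4, a calcium-binding protein of the rod synapse, was near the lower end, with 56.2, 117 and 170 in WT and 35.8, 53.6 and 169 in rd6 (-0.80 ± 0.37, q = 0.146), and its exons overlap those of Gpr152 on the opposite strand. The matrix proteoglycan genes Impg1 and Impg2 moved with the panel (slopes of 0.96 and 1.00). Impg1 had 148, 263 and 417 in WT and 75.3, 121 and 349 in rd6 (-0.98 ± 0.36, q = 0.0697). Impg2 had 128, 240 and 362 in WT and 92.8, 134 and 397 in rd6, and was higher at equal level of all 23 genes (0.67 ± 0.14, q = 0.00637) and at 0.19 ± 0.11 with the varying panel (q = 0.224). Its plain difference was -0.64 ± 0.37 (q = 0.233). In the other 11 libraries, without rd6 replicate 5, Cabp4 (-1.09 ± 0.29, q = 0.0199), Impg1 (-1.26 ± 0.29, q = 0.00825) and Impg2 (-0.93 ± 0.29, q = 0.0361) fell.

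Counted over all 38 genes, those that departed from the shared variation thus depended on the panel. With all 23 panel genes 2 rod genes were lower at equal panel level (11.5% of all genes) and 13 were higher (8.35% of all genes). In that fit the 29 genes of high slope had slopes of 1.43 to 1.95. With the slope fixed at 1 instead, 3 rod genes were lower and 1 was higher. With the varying panel 9 were lower (Gnb1, Grk1, Rgs9bp, Prph2, Rom1, Rp1l1, Abca4, Rdh12 and Unc119; 14% of all genes) and 4 were higher (Gngt1, Sag, Pdc and Tulp1; 11% of all genes). The calls that both panels made were Gnb1 and Rom1, lower, and Gngt1, Sag, Pdc and Tulp1, higher. A reason for the difference between the panels was not tested, and the abundant panel genes that fell in rd6 and varied less between libraries, given above, are part of the first panel only. Without rd6 replicate 5, all 23 panel genes left Gnb1 lower and Sag, Pdc, Rbp3 and Tulp1 higher (the other 9 of the 13 then had differences of 0.41 for Pde6a to 1.16 for Prom1 and did not pass), and the varying panel left Gnb1, Grk1, Rgs9bp, Prph2, Rom1 and Abca4 lower and Sag higher. Without WT replicate 4, the number lower with all 23 genes was 4. Without WT replicate 5, Sag alone was higher with the varying panel. Without WT replicate 6, those lower with the varying panel were Gnb1, Grk1, Rgs9bp, Prph2 and Rom1.

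**Figure D4:**
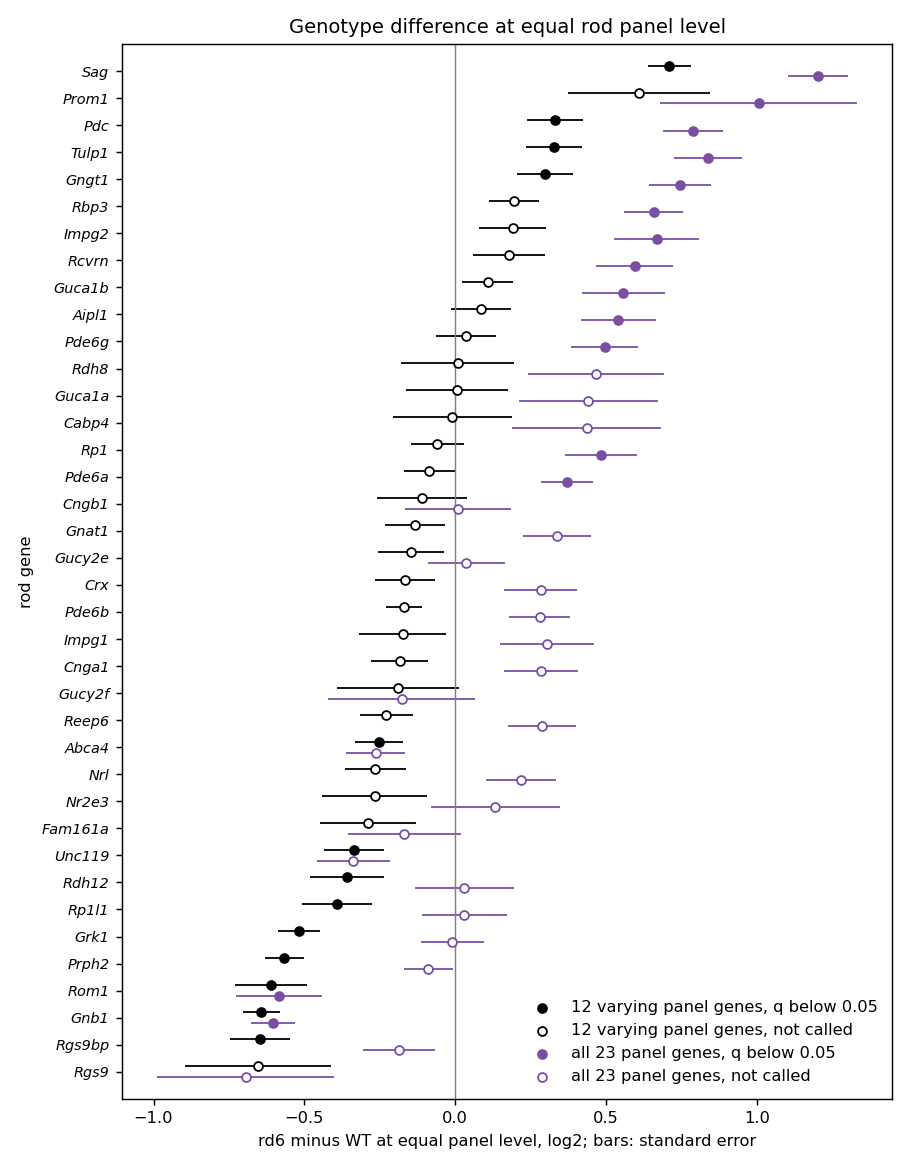
Genotype difference of the 38 rod genes (rows) at equal rod panel level, as rd6 minus WT in log2 units with standard errors, for the 12 varying panel genes (black) and all 23 panel genes (purple), with filled points where q was below 0.05. Sag is highest with either panel (0.71 and 1.20), and Gnb1 and Rom1 are filled on the lower side with both.

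Ratios within a library describe the levels without a panel. Gnat1, the reference here, was chosen after the data were seen. Gnb1 and Rom1, lower with both panels, did not follow Gnat1 between libraries, and their ratios ranged widely. Gnb1 was 132% to 318% of Gnat1 in WT (median 185%) and 90.1% to 361% in rd6 (median 278%), and Rom1 63.0% to 169% (median 89.6%) and 44.9% to 182% (median 142%). Sag was 22.4% to 27.8% of Gnat1 in the WT libraries (median 25.5%) and 34.2% to 52.1% in the rd6 libraries (median 44.1%), without overlap, and rd6 replicate 5 with 46.3% lay within the range of the other rd6 libraries. Gngt1 was 7.46% to 9.06% of Gnat1 in WT and 10.3% to 13.4% in rd6. Pde6g was 14.2% to 15.3% in WT and 16.1% to 18.2% in rd6, and Tulp1 5.82% to 7.90% and 8.13% to 9.44%. These 4 of 37 genes were the ones with every rd6 ratio above every WT ratio, a pattern of 2.64% of all genes, and none had every rd6 ratio below, as 0.0901% of all genes did. The shares over all genes include genes that, like Gnb1, do not follow Gnat1 and whose ratios carry its spread. These shares are thus no like background for genes that follow Gnat1. Pdc came close, with 11.7% to 17.0% in WT and 15.8% to 22.5% in rd6. On the lower side the ranges touched. Prph2 was 27.8% to 35.6% of Gnat1 in WT and 21.5% to 29.4% in rd6, Grk1 11.3% to 14.1% and 6.73% to 11.7%, and Rgs9bp 5.04% to 6.83% and 3.60% to 5.53%. Crx stood at 6.23% ± 0.23 in WT and 6.22% ± 0.64 in rd6 (SD, n = 6).

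**Figure D5:**
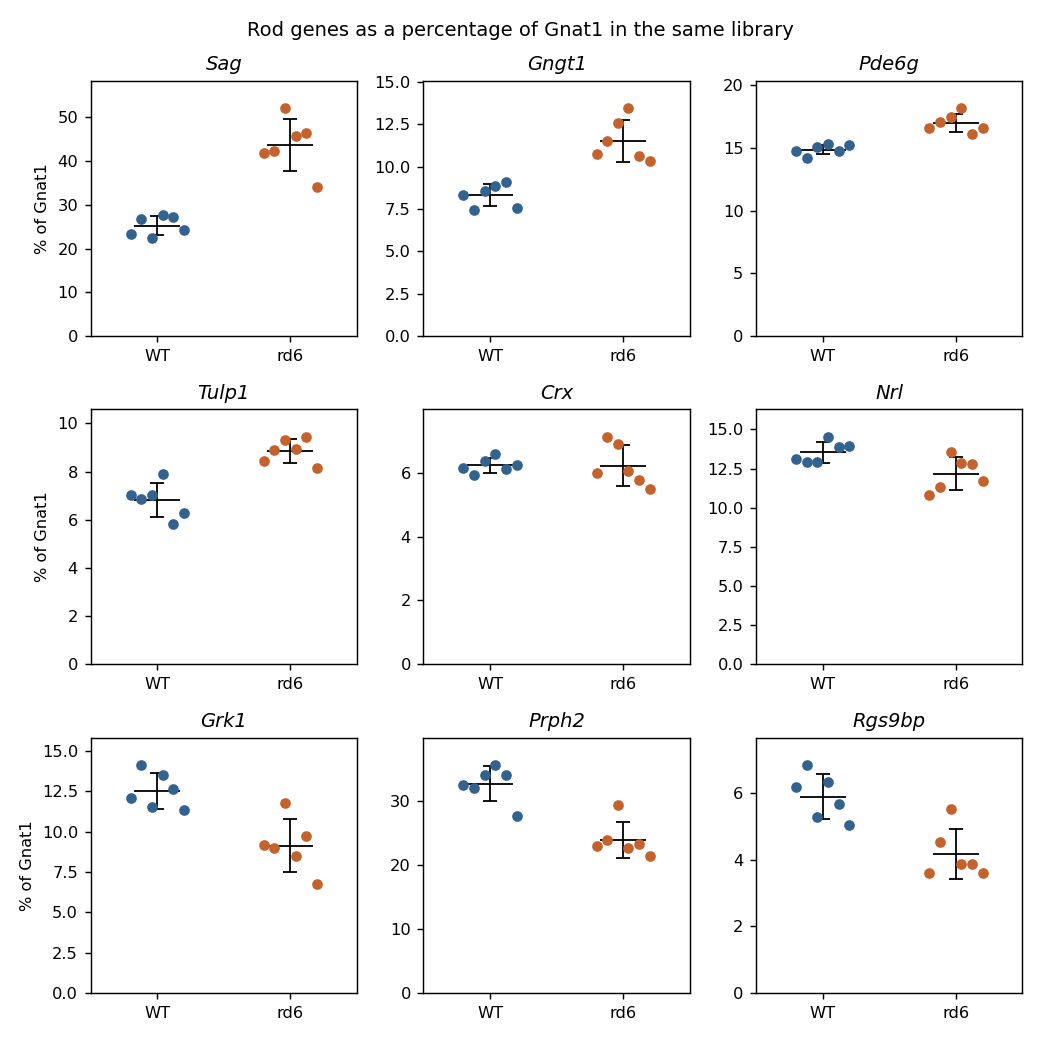
Normalized count of 9 rod genes as a percentage of Gnat1 in the same library (points, 6 per genotype), with the mean and SD (black). The WT and rd6 points do not overlap for Sag, Gngt1, Pde6g and Tulp1, all higher in rd6, and overlap for Crx, Nrl, Grk1, Prph2 and Rgs9bp.

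Genes of other cell types were set beside the rod genes. Of all genes, 11.6% fell and 11.4% rose. Of the 23 panel genes, 11 fell in rd6 and none was called higher, with a median log2 difference of -0.76. Of 10 cone genes tested, 3 fell, among them Pde6c (-1.52 ± 0.16), a cone phosphodiesterase subunit, and 3 rose, led by Gnb3 (3.83 ± 0.21), a transducin beta subunit. The 10 bipolar genes ranged from Grm6 (-0.59 ± 0.58) to Lhx4 (0.10 ± 0.49) without a call, and 1 of 11 inner neuron genes, Rbpms (0.49 ± 0.14), rose. The mean log2 level of the inner neuron list was 6.49 to 7.09 in WT and 8.05 in rd6 replicate 5. In the other rd6 libraries it was lower than in WT without overlap, at 5.72 to 6.31. Bipolar levels of 5.27 to 6.62 in WT and 4.88 to 5.59 in those rd6 libraries overlapped. Of 10 Müller glia genes 2 fell and 2 rose, and 3 of 12 RPE genes fell, with medians of -0.22 and -0.16. Those called in the Müller glia list were Glul and Rlbp1, lower, and Apoe and Dkk3, higher. Their WT means were 9080 (Dkk3) to 205537 (Apoe) normalized counts, and the highest of the others was 2291 (Gfap). The cell type that these reads come from was not tested. Microglia genes were higher, with 9 of 10 that rose and a mean log2 level of 6.41 to 7.21 in WT and 8.69 to 9.45 in rd6. Endothelial genes included 5 of 8 that rose, with overlapping levels of 9.58 to 10.49 in WT and 10.13 to 11.41 in rd6. Positive slopes on the varying panel with q below 0.05 were found for 2 inner neuron, 4 cone and 1 Müller glia gene of these lists, against 1.44% of all genes. Median slopes were 0.91 for inner neuron, 0.68 for bipolar, 0.38 for Müller glia and 0.34 for cone genes. They were -0.15 for RPE, 0.02 for microglia and -0.19 for endothelial genes, and 0.96 for the 29 rod genes of high slope. A high slope was thus not particular to rod genes. The part of these cell types in the differences of the rod genes was not tested.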

How the data were processed

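RPE was dissected from 12 mice, 6 of each genotype, and total RNA libraries of a stranded kit were sequenced. The authors mapped reads on mm10 and counted them on genes, both in Rsubread at standard settings. Use of the strand in counting is not given in the sources used here. For each library the authors deposited gene signal values, which are reads over a DESeq2 size factor (normalized counts here). Also deposited were the log2 fold change, the test score (Wald statistic) and the p-value of the authors' own DESeq2 comparison, which were not used. Of 28596 entries, 5 repeats were dropped. All values (100%) were whole multiples of the value of 1 read within a tolerance of 0.01, so reads were recovered for edgeR 4.0.16 and DESeq2 1.42.0. The number of reads per library is given above, and counts cover counting error only.

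Groups came from the sample labels. limma 3.58.1 (R 4.3.3, lmFit and eBayes with trend) was fitted to log2(value + 1) of genes whose mean was 10 or more, on genotype alone or beside a panel level, and tested on simulated data. The simulated covariate had the same values in both genotypes, unlike the panel level. That test therefore does not cover a panel level that differs between the genotypes. Fold changes on this scale understate those of low genes. Genes were called at q below 0.05, also with a log2 difference of at least 0.81. Coordinates are from GENCODE M21 (GRCm38, called mm10). Values by library are given for the gene of highest level by length in each role, for each gene called beside the panel of 23, and for the largest and smallest changes. Genes of other lists are examples, and Grk1, Prph2, Gnat1 and other members were named with their values known. Members and lists were chosen with earlier results of these data known. Alternatives were pseudocounts, filters, TMM rescaling, edgeR, DESeq2, a replicate block, other covariates and leaving out each library. The varying panel and ratios to Gnat1 were added after seeing the data.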

Additional observations from a re-analysis of the deposited data

Results flagged for a closer look

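For each of the 38 rod genes and each genotype, the gap of the highest and of the lowest library to the nearest other library was divided by the range of the 6 libraries, and a value above Dixon's critical value at the usual level was noted. By chance about 1 in 20 groups would be noted. Of the 76 groups examined, 30 were, and rd6 replicate 5 was the highest library in 29 of them. Its normalized counts were as follows. Among transducin genes it had 14987 for Gnat1, 13500 for Gnb1 and 1589 for Gngt1. For the phosphodiesterase the values were 2519 for Pde6a, 1822 for Pde6b and 2419 for Pde6g. The channel gene noted had 612 for Cnga1. Genes that end or regulate the light response stood at 6942 for Sag, 1454 for Grk1, 1047 for Rcvrn, 581 for Rgs9bp and 2676 for Pdc. Cyclase activators were at 756 for Guca1a and 1717 for Guca1b. Transcription factors reached 1915 for Nrl, 483 for Nr2e3 and 865 for Crx. Disc and cilium genes had 3482 for Prph2, 1328 for Rp1 and 523 for Rp1l1. Retinoid genes came to 73.1 for Rdh8, 310 for Rdh12 and 5212 for Rbp3. Chaperone and trafficking genes had 1415 for Tulp1, 821 for Aipl1 and 975 for Reep6. The synapse gene had 169 for Cabp4. Matrix genes stood at 349 for Impg1 and 397 for Impg2. In Gnb1, which did not follow the panel, the gap was 0.669 of the range, and in Rp1l1, the widest, it was 0.946. The other group was Prom1 in WT, with 1415 normalized counts in replicate 4. The genes noted share their libraries, so these are not independent observations. Markers of inner neurons were highest in rd6 replicate 5 as well, as given in the report, and their part was not tested.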

How the results depend on the processing

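The direction of the plain genotype difference was the same in every alternative for all 38 genes except Sag, at 0.020 with edgeR and 0.013 with DESeq2, and Prom1, at 0.040 without WT replicate 4, none of them past the limit. The number lower was 11, and 8 to 13 under other pseudocounts, filters, rescaling, edgeR and DESeq2. It was 5 with a replicate block and 6 to 32 when each library was left out in turn. The number lower by at least 0.81 in log2 units was 6, with a replicate block 1, and 3 to 24 with a library left out. At equal level of all 23 panel genes, 2 were lower and 13 higher. DESeq2 gave 5 lower. A replicate block gave 1 and 8, the other members as covariate 7 and 6, the varying panel 9 and 4, and a slope fixed at 1 gave 1 higher. The summed panel, in which Slc24a1 alone has a mean of 30831 normalized counts, gave 0 and 0, and the log2 ratio to Gnat1 gave 0 and 0. That ratio fit is void as a test of the members, since its standard error was 0.43 to 0.48 for each of them, also for the 4 whose ratios do not overlap between genotypes. Leaving out a library gave 1 to 4 lower and 4 to 14 higher. The slope was positive in 30 genes, and in 0 on the summed panel. With the varying panel, 9 were lower and 4 higher, 5 to 10 and 1 to 5 with a library left out, and 2 higher with a replicate block. Gnb1, Grk1, Rgs9bp, Prph2 and Rom1 were lower and Sag higher in all 12 of these fits. In the fit without rd6 replicate 5 the panel levels of the genotypes did not overlap.

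Differences at equal level of all 23 genes that changed sign, with the cause not tested, were these. With the slope fixed at 1 they were 0.065 for Gnb1, -0.10 for Pde6a, 0.14 for Rom1 and -0.25 for Rp1. As a ratio to Gnat1 they were 0.24 for Gnb1, 0.32 for Rom1 and -0.069 for Rp1. On the summed panel they were -1.51 for Gngt1, -1.61 for Pde6a, -1.67 for Pde6g, -1.52 for Sag, -1.31 for Rcvrn, -1.09 for Pdc, -2.55 for Guca1b, -2.49 for Rp1, -3.84 for Prom1, -1.71 for Rbp3, -1.80 for Tulp1, -1.99 for Aipl1 and -2.03 for Impg2, none past the limit. Replicate numbers did not pair the samples, since correlations of the deviations of same-numbered libraries ranged from -0.74 to 0.31 and 1 of 6 was over 0.1. Each library had 28907262 reads or more, and counting error was not compared with the spread between libraries.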
